A study of Mus musculus with 8 samples.

Results

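The 9 genes described here store iron, bring it into the cell, regulate it or govern the lipid peroxidation that iron drives: Fth1, Ftl1, Ncoa4, Tfrc, Ireb2, Aco1, Gpx4, Acsl4 and Lpcat3. They were taken by symbol from a deposited table of 21879 genes, and all 9 were present and passed the expression filter. The RNA, enriched on oligo(dT) beads, came from TCMK-1, a mouse line grown from kidney tubule epithelium. In 4 libraries the cells carried an shRNA against smgGDS, a protein encoded by Rap1gds1 that binds small GTPases. In the other 4 (labelled smgGDS control) they carried a control shRNA, and cells of both groups were given cisplatin at 20 µM, a platinum drug that injures the kidney tubule. Every comparison is therefore of knockdown with control under the drug. Whether the 4 libraries of a group were separate cultures is not stated, nor whether each group is 1 clone, and the p-values measure the spread between these libraries, which may be technical.

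Iron that is not in use is held inside ferritin, a shell built of heavy (Fth1) and light (Ftl1) chains, and it is released when NCOA4 carries ferritin to the lysosome. Cells take iron up through the transferrin receptor (Tfrc). The iron regulatory proteins IRP1 (Aco1) and IRP2 (Ireb2) bind stem-loops in messenger RNA when iron is scarce, which blocks translation of ferritin and stabilises Tfrc messenger RNA. Ferroptosis is a form of death in which iron-dependent oxidation of membrane lipids outruns its repair. GPX4 reduces lipid peroxides, while ACSL4 and LPCAT3 place the oxidisable fatty acids in phospholipids. Tubule cells are known to be prone to this form of death in acute kidney injury.

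Iron-responsive elements are shown first because 3 of the 9 genes carry them. Elements in the ferritin transcripts act on translation, which RNA levels do not measure, while those in Tfrc act on the stability of its messenger RNA. The search was for CNNNNNCAGTGN followed by 5 bases that pair, G-T pairs allowed, with the 5 bases before CAGTGN. It was run on the sense strand of GENCODE M21 protein-coding transcripts (GRCm38). The pattern was present in the 5′ untranslated region of 0.101% of 20714 genes and in the 3′ untranslated region of 0.56% of 20881 genes, on the longest transcript of each. Over all transcripts of the 9 genes it was found in the 5′ region of Fth1 and Ftl1 and in the 3′ region of Tfrc, where it occurred 4 times. In the other 6 genes no match with that pairing was found, and the letters without the pairing were not counted. Capitals mark the loop and the sequences run 5′ to 3′.
Fth1 (chr19:9982732-9982761, plus strand): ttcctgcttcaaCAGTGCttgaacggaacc
Ftl1 (chr7:45459778-45459807, minus strand): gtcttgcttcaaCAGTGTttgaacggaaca
Tfrc element 1 (chr16:32631219-32631248, plus strand): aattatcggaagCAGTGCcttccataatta
Tfrc element 2 (chr16:32631598-32631627, plus strand): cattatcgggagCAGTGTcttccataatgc
Tfrc element 3 (chr16:32631663-32631692, plus strand): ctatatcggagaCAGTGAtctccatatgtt
Tfrc element 4 (chr16:32631710-32631739, plus strand): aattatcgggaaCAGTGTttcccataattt
The ferritin elements share the stem around the loop, while the Tfrc elements have stems of their own. A match describes the sequence and is no evidence of binding in these cells.

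Library size, as the sum of expected counts, was 12746051 to 14280962 for knockdown libraries and 11560977 to 16059158 for control libraries. Rap1gds1 was at 2.62 ± 0.19 CPM (counts scaled to a fixed library size) in the knockdown and 16.2 ± 0.80 CPM in controls (SD, n = 4 each) (edgeR adjusted p = 2.72e-19). The component with the largest variance, 29.2% of the total, parted the groups. Controls were at -16.5 to -8.86 and knockdown libraries at 8.86 to 20.9, with knockdown replicate 4 the highest. Knockdown replicates 1 to 3 were at 8.86, 9.58 and 8.88. Of 11576 genes tested, 20.2% passed an edgeR quasi-likelihood adjusted p of 0.05, 11.1% upward and 9.15% downward. Library scaling shifted this balance, with 1285 genes higher and 1059 lower under TMM factors, against 766 higher and 1951 lower under library totals. TMM factors did not overlap between the groups, at 0.974 to 0.987 in knockdown libraries and 1.01 to 1.03 in control libraries. Over all genes the median was -0.0033 (log2) under TMM factors and -0.06 under library totals. As a check of the labelled cell type, Krt8 and Krt18, keratins of simple epithelia, were low, at 1.52 to 2.35 and 0.57 to 1.52 CPM in the knockdown and 1.88 to 3.25 and 1.19 to 2.09 CPM in controls. Epcam, another epithelial gene, averaged 2.37 CPM in the knockdown and 1.90 CPM in controls. Pax8, a renal epithelial transcription factor, had 7.63 to 10.2 CPM in the knockdown and 8.38 to 9.28 CPM in controls, while the proximal tubule regulator Hnf4a had no count in any library. The summed level of 11 epithelial markers, 0 of 5 tested being called, was 23.2 to 28.5 CPM in the knockdown and 25.6 to 28.6 CPM in controls. For 8 proximal tubule markers it was 126 to 133 CPM in the knockdown and 151 to 165 CPM in controls, 1 of 4 tested being called, and 3 of the 8 were at 0 in every library. Nearly all of that sum was Aqp1, a water channel gene, at 124 to 131 CPM in the knockdown and 148 to 162 CPM in controls. The leukocyte gene Ptprc had at most 1 count, and 9 leukocyte and erythroid markers summed to 113 to 123 CPM in the knockdown and 131 to 140 CPM in controls, the sum being mostly Cd68 and Cd14, of which Cd14 was called lower. For 6 endothelial markers the sum was 11.98 to 13.8 CPM in the knockdown and 7.53 to 9.83 CPM in controls, and the 1 tested, Flt1, made up most of it and rose. The summed level of 7 fibroblast markers was 366 to 421 CPM in the knockdown and 308 to 334 CPM in controls, and all 4 of those tested rose. Most of that sum was the collagen gene Col1a1, at 309 to 358 CPM in the knockdown and 266 to 290 CPM in controls. Pdgfra, Lum and Thy1 had at most 9, 5 and 3 counts in a library and were not tested. The part of these marker differences in the results below was not tested.

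Levels of the 9 genes lay in 3 tiers, compared here in the authors' FPKM, fragments scaled for transcript length and library depth. The ferritins were among the most abundant transcripts, with Ftl1 at 3719.6 ± 85.8 FPKM in the knockdown and 3663 ± 43.5 FPKM in controls (SD, n = 4 each). Fth1 was next at 2309.5 ± 77.4 FPKM in the knockdown and 2331 ± 36.4 FPKM in controls. By the mean over all libraries these ranked 16 and 31 among the tested genes, and together they took 0.558% to 0.59% of the counts of a knockdown library and 0.571% to 0.584% of a control library. The middle tier held Gpx4 at 531 ± 21.4 FPKM in the knockdown and 514 ± 10.4 FPKM in controls. Ncoa4 followed at 107 ± 3.03 FPKM in the knockdown and 107 ± 2.93 FPKM in controls, and Tfrc at 39.4 ± 0.80 FPKM in the knockdown and 41.5 ± 2.71 FPKM in controls. The lowest tier lay within a narrow range. Lpcat3 had 6.79 ± 0.84 FPKM in the knockdown and 8.03 ± 0.43 FPKM in controls, and Acsl4 had 4.82 ± 0.59 FPKM in the knockdown and 4.37 ± 0.33 FPKM in controls. Aco1 had 4.22 ± 0.37 FPKM in the knockdown and 3.73 ± 0.19 FPKM in controls, and Ireb2 had 3.18 ± 0.52 FPKM in the knockdown and 3.31 ± 0.49 FPKM in controls. In that tier Acsl4 and Aco1, and Aco1 and Ireb2, overlapped between neighbours across libraries, so their order is not fixed by these data.

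**Figure D1:**
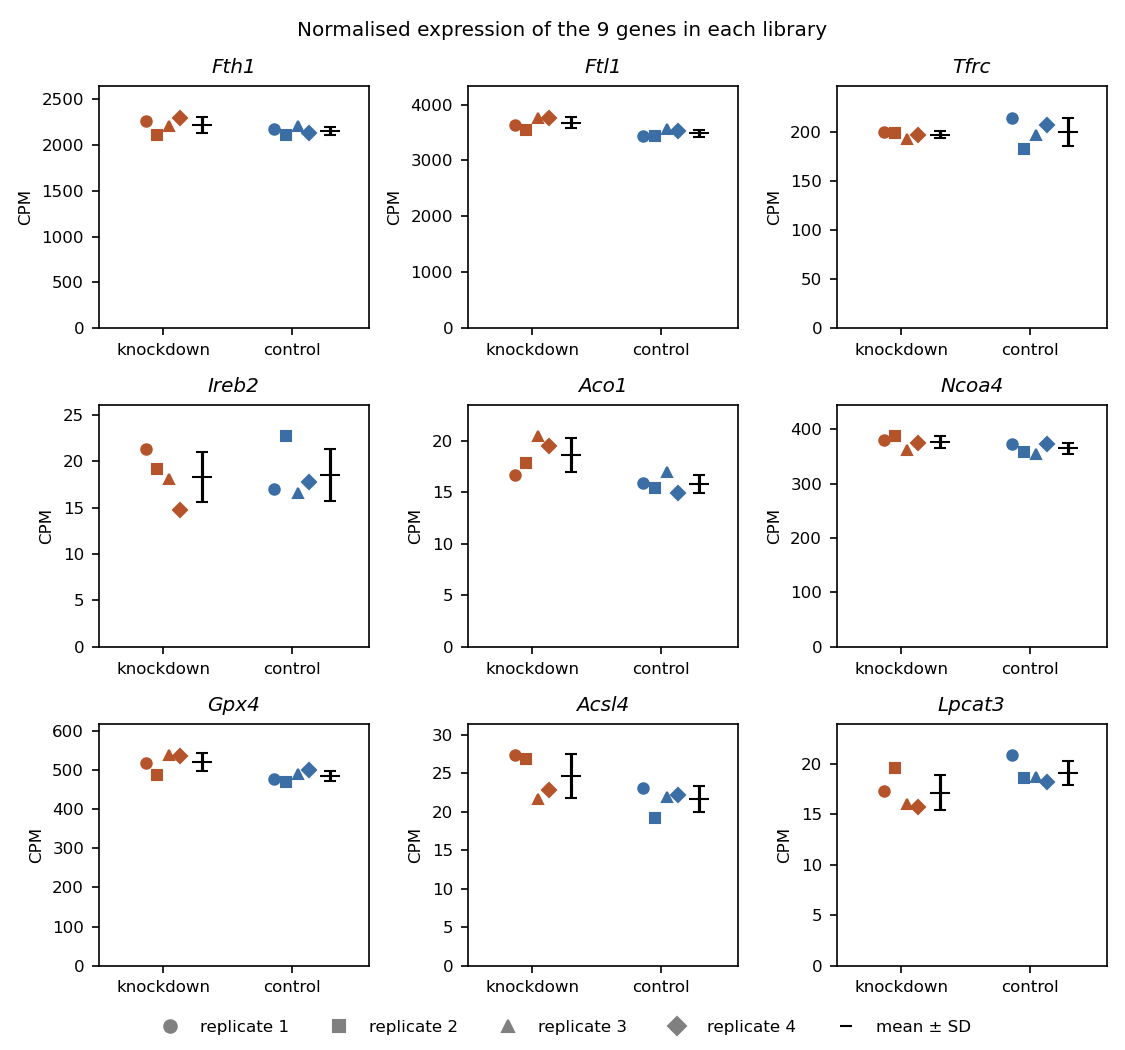
TMM-normalised expression (CPM, linear axes from 0) of the 9 genes in each of 4 knockdown and 4 control libraries, with marker shapes for replicates 1 to 4 and the mean ± SD beside the points. In every panel the knockdown and control points overlap.

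The knockdown left these 9 transcripts close to their control levels. Ftl1 and Gpx4 rose by 0.08 and 0.10 on the log2 scale and none of the 9 fell, while under library totals and on FPKM 0 rose and 0 fell. FPKM is also scaled for library depth, so it is not a check of scaling separate from library totals. In bulk RNA, fewer cells of a type and less RNA per cell cannot be told apart. Under TMM factors 2 of 9 were higher, where 11.1% of all tested genes were, and 0 of 9 were lower, where 9.15% were. DESeq2 and limma voom also called 2 higher and 0 lower. An unadjusted p under 0.05 in edgeR was reached by 4 of the 9, and by 3700 of all 11576 tested genes. Background shares were 6.62% higher and 16.9% lower (23.5% in all) under library totals, and 5.17% higher and 13% lower (18.2% in all) in limma on FPKM. With a correction for length and GC, which called 3 of the 9 higher and 0 lower, they were 11% and 9.91% (20.9% in all). No gene of the 9 had groups that did not overlap, against 21.1% of all tested genes, 11.5% with the knockdown above and 9.61% with it below. The 95% intervals of the fold changes of all 9 genes lay between 79.2% of control, the lower bound for Lpcat3, and 133% of control, the upper bound for Aco1. The median log2 fold change of the 9 was 0.04, against -0.0033 over all tested genes.

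**Figure D2:**
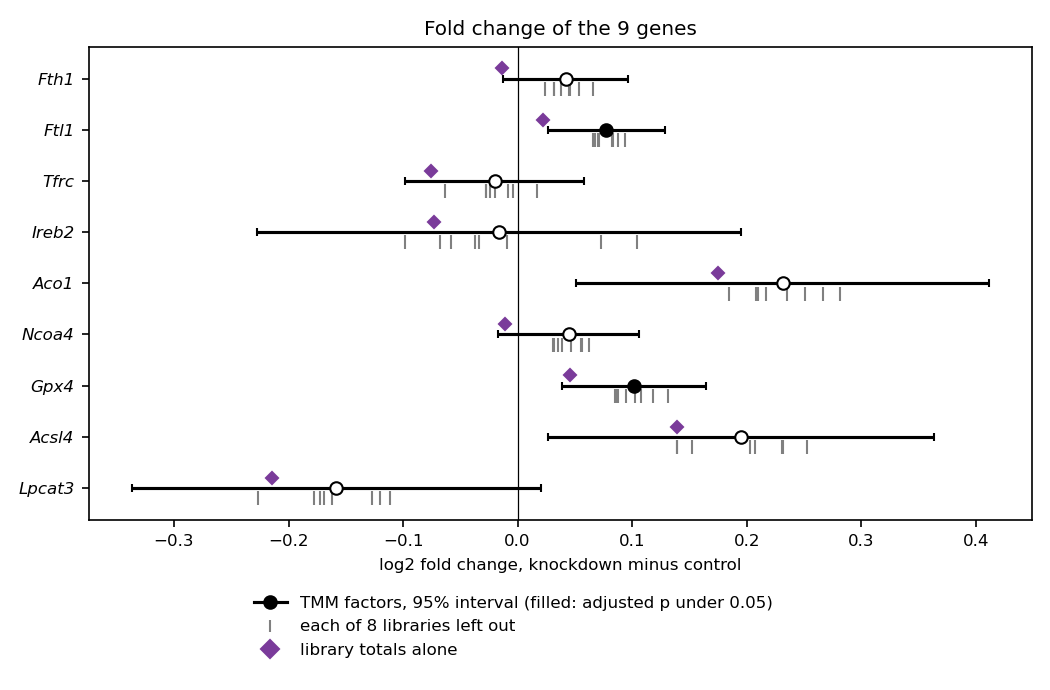
Log2 fold change (knockdown minus control) of each gene with TMM factors and its 95% interval, filled where the edgeR adjusted p was under 0.05, with grey ticks for fits that left out 1 of the 8 libraries and diamonds for scaling by library totals. Ftl1 (0.08) and Gpx4 (0.10) are the filled points, and their diamonds sit at 0.02 and 0.05, where neither was called.

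Ftl1, the light chain that promotes mineral formation inside ferritin (ncbi_14325, chr7:45457944-45459886, GRCm38.p6), had 3643, 3550, 3767 and 3754 CPM in knockdown replicates 1 to 4. In control replicates 1 to 4 it had 3430, 3435, 3557 and 3521 CPM. The lowest knockdown library lay just below the highest control, and the other 3 lay above every control. The level was 106% of control (95% interval 102% to 109%, log2 fold change 0.08, SE 0.03, edgeR adjusted p = 0.0248). Ftl1 lost this call without control replicate 1 or 2 or knockdown replicate 3 or 4, where the edgeR adjusted p lay between 0.0639 and 0.103. Under library totals the log2 fold change was 0.02 and also not called. GENCODE M21 has 2 genes named as Ftl1 pseudogenes, and Gm22133 and Gm10252 overlap the locus, so its counts may hold reads of these genes.

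Fth1, the heavy chain that oxidises ferrous iron (ncbi_14319, chr19:9980600-9985111), had 2263, 2106, 2204 and 2300.4 CPM in knockdown replicates 1 to 4. Its levels were 2170.3, 2108, 2207 and 2133 CPM in control replicates 1 to 4. Knockdown libraries lay on both sides of the control range. The estimate was 103% of control (95% interval 99.1% to 107%, log2 fold change 0.04, SE 0.03, edgeR adjusted p = 0.301), and its sign turned to -0.01 under library totals. Within each library the ratio of Fth1 to Ftl1 FPKM, which no scaling moves, was 0.64, 0.611, 0.602 and 0.631 in the knockdown and 0.652, 0.632, 0.639 and 0.624 in controls. These ratios overlapped between the groups, with a mean log2 ratio of -0.69 ± 0.04 in the knockdown and -0.65 ± 0.03 in controls (SD, n = 4 each).

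Ncoa4, the receptor that delivers ferritin to autophagosomes (ncbi_27057, chr14:32159879-32179855), had 381, 387, 363 and 375 CPM in knockdown replicates 1 to 4. It had 373, 358, 355 and 373 CPM in control replicates 1 to 4. The groups overlapped, with 3 knockdown libraries above every control. Its level was 103% of control (95% interval 98.8% to 108%, log2 fold change 0.04, SE 0.03, edgeR adjusted p = 0.331) and the sign turned to -0.01 under library totals.

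Tfrc, the receptor that takes up transferrin-bound iron (ncbi_22042, chr16:32608896-32632794), had 199.8, 199, 192 and 197 CPM in knockdown replicates 1 to 4. Controls held 214, 182, 196 and 207 CPM in replicates 1 to 4. The control libraries were the more spread, and every knockdown library lay inside their range. The level was 98.6% of control (95% interval 93.4% to 104%, log2 fold change -0.02, SE 0.04, edgeR adjusted p = 0.775). Without control replicate 1 the log2 fold change was 0.02, and under library totals it was -0.08. The ratio of Tfrc to Fth1 FPKM in a library, which no scaling moves, was 0.017, 0.0181, 0.0167 and 0.0164 in knockdown replicates 1 to 4. It was 0.019, 0.0166, 0.0171 and 0.0186 in control replicates 1 to 4. These ranges overlapped, with a mean log2 ratio of -5.87 ± 0.06 in the knockdown and -5.81 ± 0.09 in controls (SD, n = 4 each).

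Aco1, the cytosolic aconitase that becomes IRP1 when it loses its iron-sulfur cluster (ncbi_11428, chr4:40143265-40199009), had 16.7, 17.8, 20.4 and 19.5 CPM in knockdown replicates 1 to 4. In control replicates 1 to 4 it had 15.9, 15.4, 16.9 and 14.96 CPM. In 3 knockdown libraries the level exceeded every control. Its estimate was the largest of the 9 at 117% of control but also one of the least precise (95% interval 104% to 133%, log2 fold change 0.23, SE 0.09, edgeR adjusted p = 0.0605). It did not pass, and did pass with the length and GC correction (edgeR adjusted p = 0.0348) and without knockdown replicate 1 (edgeR adjusted p = 0.0353). Over 18 alternatives it was called in 3, always higher, with the log2 fold change between 0.14 and 0.28.

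Ireb2, which encodes IRP2, a protein degraded when iron is plentiful (ncbi_64602, chr9:54862658-54912534), had 21.2, 19.2, 18.1 and 14.8 CPM in knockdown replicates 1 to 4. Its control values were 17.03, 22.7, 16.5 and 17.8 CPM in replicates 1 to 4. The groups overlapped nearly in full, and the highest value was a control. The level was 98.9% of control (95% interval 85.4% to 114%, log2 fold change -0.02, SE 0.10, edgeR adjusted p = 0.942). Changes inside that interval remain compatible with these libraries, and the smallest detectable change was not computed. The estimate turned to 0.07 without knockdown replicate 4 and 0.10 without control replicate 2. The log2 ratio of Ireb2 to Aco1 was -0.42 ± 0.34 in the knockdown and -0.18 ± 0.23 in controls (SD, n = 4 each). The difference of -0.24 was smaller in size than the SD in the knockdown and slightly larger than that in controls.

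**Figure D3:**
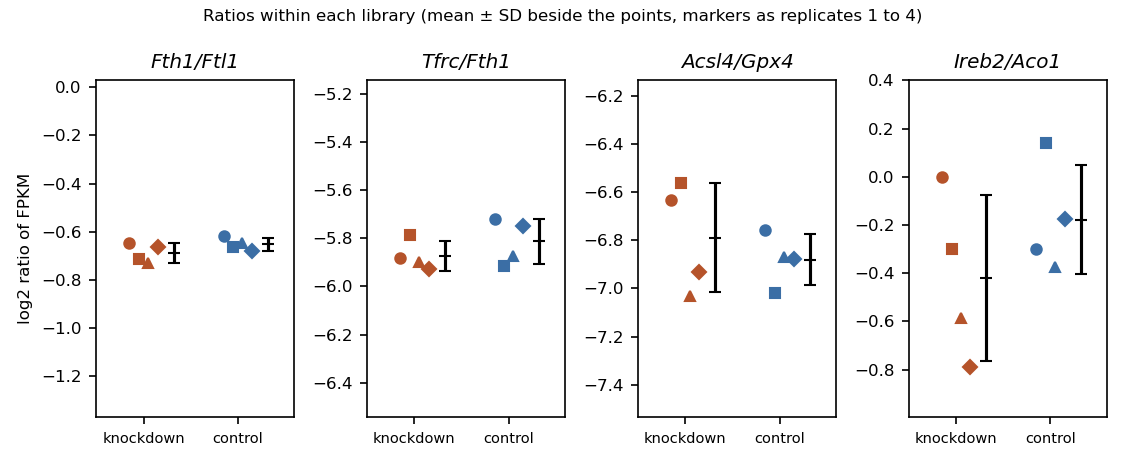
Log2 ratio of the authors' FPKM between pairs of the 9 genes in each library, knockdown left and control right, with the mean ± SD of 4 libraries beside the points and the same axis span in each panel. The Fth1/Ftl1 ratio is the tightest (-0.69 ± 0.04 in the knockdown and -0.65 ± 0.03 in controls) and Ireb2/Aco1 the most spread.

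Gpx4, the selenoprotein that reduces phospholipid hydroperoxides (ncbi_625249, chr10:80047166-80056439), had 519, 487, 538 and 536 CPM in knockdown replicates 1 to 4. Control replicates 1 to 4 had 477, 470.3, 491 and 501 CPM. Knockdown replicate 2 lay inside the control range and the other 3 lay above it. The level was 107% of control (95% interval 103% to 112%, log2 fold change 0.10, SE 0.03, edgeR adjusted p = 0.0161). As for Ftl1, the call was lost without control replicate 1 or 2 or knockdown replicate 3 or 4, with an edgeR adjusted p between 0.0517 and 0.0728, and under library totals (log2 fold change 0.05, edgeR adjusted p = 0.272). A Gpx4 pseudogene is annotated in GENCODE M21.

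Selenoproteins are made by reading a TGA codon as selenocysteine, and the codons of Gpx4 and of 3 other selenoprotein genes that passed the test are shown for that reason. Those 3 were chosen after their values were seen. Gpx1 encodes a glutathione peroxidase that acts on soluble peroxides, Txnrd1 the cytosolic thioredoxin reductase, and Sephs2 the enzyme that makes the selenium donor. Each coding sequence in GENCODE M21 holds 1 such in-frame TGA, marked in capitals, in Gpx4 at codon 129 of 254 in the longest annotated form.
Gpx4 (chr10:80054722-80054754, plus strand): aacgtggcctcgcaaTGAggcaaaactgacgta
Gpx1 (chr9:108339436-108339468, plus strand): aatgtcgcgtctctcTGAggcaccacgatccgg
Txnrd1 (chr10:82896022-82896054, plus strand): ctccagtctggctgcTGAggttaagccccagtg
Sephs2 (chr7:127273716-127273748, minus strand): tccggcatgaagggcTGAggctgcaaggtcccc
In Txnrd1 the codon is 612 of 614, at the end of the protein, while in Gpx1 (47 of 202) and Sephs2 (63 of 453) it is near the start. The 4 transcripts did not share a direction. Gpx1 was at 801 ± 14.0 CPM in the knockdown and 758 ± 25.0 CPM in controls (log2 fold change 0.08, SE 0.03, edgeR adjusted p = 0.0382). That call was lost without knockdown replicate 1, 2 or 3 or control replicate 1 or 2, under library totals and on FPKM. Txnrd1 fell to 244 ± 9.51 CPM in the knockdown, against 329 ± 4.43 CPM in controls (log2 fold change -0.43, SE 0.03, edgeR adjusted p = 4.1e-13). Sephs2 fell to 23.1 ± 1.90 CPM in the knockdown, against 28.3 ± 1.65 CPM in controls (log2 fold change -0.29, SE 0.08, edgeR adjusted p = 0.00465). Txnrd1 and Sephs2 were called under all 18 alternatives.

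Acsl4, the synthetase that activates arachidonic and related fatty acids (ncbi_50790, chrX:142317993-142390802), had 27.4, 26.9, 21.6 and 22.8 CPM in knockdown replicates 1 to 4. In control replicates 1 to 4 it had 23.1, 19.2, 21.97 and 22.2 CPM. Knockdown replicates 1 and 2 lay above the controls, and 3 and 4 lay among them. The level was 114% of control (95% interval 102% to 129%, log2 fold change 0.19, SE 0.08, edgeR adjusted p = 0.0936) and did not pass, except without knockdown replicate 3 (edgeR adjusted p = 0.0356). The log2 ratio of Acsl4 to Gpx4 FPKM, a substrate enzyme against the repair enzyme, was -6.79 ± 0.23 in the knockdown and -6.88 ± 0.11 in controls (SD, n = 4 each), and the groups overlapped.

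Lpcat3, which inserts polyunsaturated fatty acids into phospholipids (ncbi_14792, chr6:124663094-124704716), had 17.3, 19.5, 16.0 and 15.7 CPM in knockdown replicates 1 to 4. Control replicates 1 to 4 had 20.8, 18.6, 18.7 and 18.2 CPM. Knockdown replicates 1, 3 and 4 lay below every control, and replicate 2 lay among the controls. The level was 89.6% of control (95% interval 79.2% to 101%, log2 fold change -0.16, SE 0.09, edgeR adjusted p = 0.219). Estimates under all 18 alternatives were negative, with 0 of them called, and lay between -0.23 and -0.11. Lpcat3 is the 1 gene of the 9 with counts that are not whole, and Emg1 overlaps it on the opposite strand. Without a stated strand setting, its counts may hold reads of Emg1 from the shared stretch, whose extent was not measured.

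Around these 9 genes, 127 genes of iron handling and ferroptosis were examined in 5 lists, 103 of them with enough counts to be tested. Of the 103, 21 rose and 11 fell, where 11.1% and 9.15% of all tested genes did. Lists were described by counts only. All values that follow are log2 fold changes by edgeR, knockdown minus control, unless another scale is named.

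**Figure D4:**
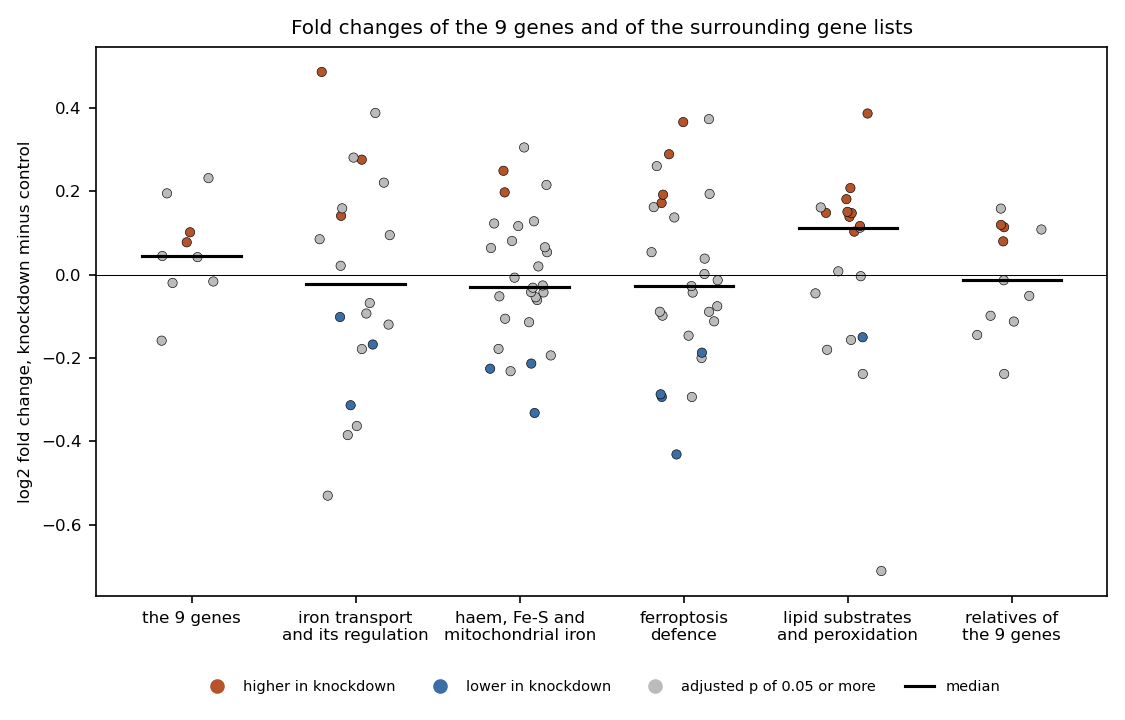
Log2 fold change (knockdown minus control) of every tested gene in the 9-gene set and the 5 surrounding lists, orange where higher and blue where lower at an edgeR adjusted p under 0.05, with the median as a bar. The list of lipid substrates and peroxidation has 9 genes higher and 1 lower of 19 and a median of 0.11, while the other 4 list medians lie between -0.03 and -0.01.

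Among 20 tested genes of iron transport and its regulation, 3 rose and 3 fell, with a median of -0.02. Cp, encoding the ferroxidase ceruloplasmin, had the largest rise, to 20.0 ± 2.76 CPM in the knockdown, against 14.3 ± 1.07 CPM in controls (log2 fold change 0.49, SE 0.09, edgeR adjusted p = 0.000162). Cytosolic iron chaperone genes went opposite ways. Pcbp2 rose by 0.14 (SE 0.03) and Pcbp1 fell by 0.10 (SE 0.03). The call of Pcbp1 was lost without knockdown replicate 2 or control replicate 1 or 3, and with the length and GC correction. Herc2, encoding a ubiquitin ligase that acts on NCOA4, rose by 0.28 (SE 0.10). That call was lost under library totals, on FPKM, with DESeq2 and with the length and GC correction. It was also lost in 5 of the fits that left out 1 library (knockdown replicate 1, 2 or 4, control replicate 1 or 3). Slc39a14, a metal importer that takes up iron not bound to transferrin, fell by 0.31 (SE 0.10). Its call was lost without knockdown replicate 1 or control replicate 2, where the estimates were -0.24 and -0.27. Slc48a1, which moves haem out of endosomes and lysosomes, fell by 0.17 (SE 0.04).

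Genes that set the direction of iron flow showed little to compare. Fbxl5, the ubiquitin ligase subunit that degrades IRP2 when iron is plentiful, was at 27.3 ± 1.85 CPM in the knockdown and 26.9 ± 2.72 CPM in controls (log2 fold change 0.02, SE 0.08, edgeR adjusted p = 0.889), and its sign turned to -0.03 under library totals. Slc11a2, the divalent metal transporter DMT1, was at 22.7 ± 2.01 CPM in the knockdown and 23.9 ± 3.21 CPM in controls (log2 fold change -0.07, SE 0.09, edgeR adjusted p = 0.639). Slc40a1, the iron exporter ferroportin, had at most 4 counts in a library, about the limit that 3 counts set here (0.214 to 0.24 CPM in the knockdown and 0.181 to 0.256 CPM in controls, for counting error only), and was not tested. Transferrin (Trf), hephaestin (Heph) and mitochondrial ferritin (Ftmt) had 0 counts in all 8 libraries.

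Of 28 tested genes of haem, iron-sulfur clusters and mitochondrial iron, 2 rose and 3 fell, with a median of -0.03. The haem synthesis enzymes Alad and Urod fell by 0.21 (SE 0.04) and 0.23 (SE 0.07), and the later enzyme Cpox rose by 0.25 (SE 0.06). Iscu, the scaffold on which iron-sulfur clusters are assembled, rose by 0.20 (SE 0.05). Hmox1, the haem oxygenase that frees iron from haem, fell to 70.4 ± 4.97 CPM in the knockdown, against 88.4 ± 5.95 CPM in controls (log2 fold change -0.33, SE 0.05, edgeR adjusted p = 6.79e-06). Urod lost its call without control replicate 4, and Cpox lost its call on FPKM (limma adjusted p = 0.0608), where 1 gene rose and 6 fell. Under library totals 2 rose and 8 fell. Without control replicate 1 or knockdown replicate 3, 2 rose and 5 fell, and without control replicate 4, 2 rose and 2 fell.

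In the list of ferroptosis defence genes and their regulators, 4 were higher and 4 lower of 27 tested, with a median of -0.03. Because the list holds regulators such as Keap1, these counts are directions of RNA and give no direction of defence. The genes for the subunits of the cystine importer both rose. Slc7a11 was at 13.7 ± 2.18 CPM in the knockdown and 10.7 ± 1.02 CPM in controls (log2 fold change 0.37, SE 0.11, edgeR adjusted p = 0.0149). Slc3a2 rose by 0.19 (SE 0.03), and the counts of both genes are not whole. Counts that are not whole also occurred for Aifm2, Pcbp2, Sat1 and Acsl3. Gch1, which makes the radical-trapping cofactor tetrahydrobiopterin, rose to 48.2 ± 2.07 CPM in the knockdown, against 39.6 ± 2.05 CPM in controls (log2 fold change 0.29, SE 0.06, edgeR adjusted p = 0.000259). Aifm2, encoding the ubiquinone reductase FSP1 that works in parallel to GPX4, went the other way. It fell to 26.6 ± 0.32 CPM in the knockdown, against 32.5 ± 1.29 CPM in controls (log2 fold change -0.29, SE 0.07, edgeR adjusted p = 0.00113). Remaining calls were rises in the small heat shock gene Hspb1 (0.17, SE 0.05) and falls in Keap1 (-0.19, SE 0.07), Txnrd1 and Sephs2. Nfe2l2, encoding the transcription factor NRF2, was at 61.2 ± 3.60 CPM in the knockdown and 65.5 ± 4.48 CPM in controls (log2 fold change -0.10, SE 0.05, edgeR adjusted p = 0.207), and was called lower under library totals (-0.15, edgeR adjusted p = 0.0373). Slc7a11 lost its call without knockdown replicate 1 or 4 or control replicate 2, on FPKM and with the length and GC correction. Hspb1 lost it without knockdown replicate 1 or 3 or control replicate 1 or 4, under library totals and on FPKM. Keap1 lost it without knockdown replicate 3 or 4 or control replicate 1, 2 or 4, and with DESeq2. It also lost it with limma voom, on FPKM and with the length and GC correction, and was called in 8 of 18 alternatives. Under library totals 3 genes rose and 8 fell, and without knockdown replicate 1, 2 rose and 5 fell.

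Of 19 tested genes that supply oxidisable lipids or promote their oxidation, 9 rose and 1 fell, with a median of 0.11. The 9 rises were from 0.10 to 0.39. Sat1, a polyamine acetyltransferase that promotes lipid peroxidation, was at 255 ± 5.80 CPM in the knockdown and 230.2 ± 4.89 CPM in controls (log2 fold change 0.15, SE 0.03, edgeR adjusted p = 0.000653). Pebp1, a partner of lipoxygenases, rose by 0.10 (SE 0.03), Cyb5r1, a reductase that can feed lipid oxidation, rose by 0.14 (SE 0.03), and Vdac3, a mitochondrial outer membrane channel, rose by 0.15 (SE 0.03). The desaturases Fads1 and Fads2 rose by 0.12 (SE 0.03) and 0.15 (SE 0.05). Agps and Far1, enzymes of ether lipid synthesis, rose by 0.18 (SE 0.06) and 0.21 (SE 0.08), and Acaca, the rate-limiting enzyme of fatty acid synthesis, rose by 0.39 (SE 0.11). Por, the reductase that serves cytochromes P450 and can drive lipid oxidation, fell by 0.15 (SE 0.05).

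The count in this list depended on scaling. Library totals gave 3 rises, 1 fall and a median of 0.06, and limma on FPKM gave 1 rise, 1 fall and a median of 0.05. Without control replicate 2 and without knockdown replicate 4 it was 6 up and 0 down each, and without control replicate 1 or knockdown replicate 2 it was 7 up and 0 down. Fads1, Fads2, Agps, Far1, Pebp1 and Cyb5r1 lost their calls under library totals and on FPKM. Vdac3 and Acaca lost theirs on FPKM. Agps and Far1 were called in 6 and 5 of 18 alternatives. Fads1 also lost it without control replicate 2, and Fads2 without control replicate 2 or knockdown replicate 3 or 4. Agps was called in 2 of the 8 fits that left out a library, without knockdown replicate 1 or 3, and Far1 in 2, without knockdown replicate 3 or control replicate 2. Por lost its call without control replicate 1 or 2 or knockdown replicate 2 or 4, and with the length and GC correction. Ptgs2, a cyclooxygenase gene often used as a marker of ferroptosis, was at 566 ± 28.9 CPM in the knockdown and 563 ± 9.23 CPM in controls (log2 fold change 0.01, SE 0.03, edgeR adjusted p = 0.898), and its sign turned to -0.05 under library totals.

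Relatives of the 9 genes showed 3 rises and 0 falls among 11 tested, with a median of -0.01. DESeq2 also gave 3 rises and 0 falls. An unadjusted p under 0.05 in edgeR was reached by 3 of the 11, and by 3700 of all 11576 tested genes. Acsl5, another long-chain acyl-CoA synthetase, rose by 0.12 (SE 0.04), and Gpx1 rose as given above. Acsl3, a synthetase that favours monounsaturated fatty acids, was at 17.05 ± 2.72 CPM in the knockdown and 17.2 ± 0.69 CPM in controls. Under library totals 0 relatives rose and 1 fell. The number of rises was 1 without control replicate 1 or 2 or knockdown replicate 1, in each of which Acsl5 and Gpx1 lost their calls.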

How the data were processed

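For each of the 8 libraries the authors deposited expected counts and FPKM by gene, per the file headers. Build GRCm38.p6 is named in the submitters' processing notes. Those notes list, without saying what each did, RSEM, StringTie 1.3.1, HISAT2 2.4, Bowtie2 2.2.8, fastp 0.18.0, edgeR and DESeq2. The strand setting and annotation release were not given in the sources used here.

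Rounded counts entered a two-sided robust quasi-likelihood F-test on group (edgeR 4.0.16, R 4.3.3; TMM scaling, default filter), with Benjamini-Hochberg adjustment over 11576 genes at 0.05. Standard errors came from the fold change and F statistic. CPM used TMM-scaled library sizes. Alternatives were other size factors, library totals, DESeq2 1.42.0, limma 3.58.1 (voom, and log2(FPKM + 0.5) or log2(FPKM + 1), where folds of low genes are understated), other filters, a replicate term and each library left out. A correction for GC content and length (11442 genes) was added after seeing the data. The procedure was run on simulated data, where every change put in was larger than those of Ftl1 and Gpx4. Its behaviour for changes that small was not tested.

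The 9 genes and all lists were chosen with earlier results of these data known. The text names every one of the 9, up to 4 called genes with the smallest adjusted p per list, and Slc7a11, Slc40a1, Fbxl5, Hmox1, Aifm2 and Nfe2l2. Other list genes named were chosen after their values were seen. A gene that meets this rule is not reported here. Of 128 listed genes, Ftl2 had no match by symbol or identifier. Replicates of a group differed by more than sampling noise (chi-square per degree of freedom 1.94 to 3.94).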

Additional observations from a re-analysis of the deposited data

Results flagged for a closer look

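Dixon's test was applied to 100 groups of 4 libraries and picked out 2, while chance picks about 1 in 20. Cp in knockdown replicate 4 was at 24.1 CPM, against 18.3 to 18.9 CPM in the other knockdown libraries, and Cp remained called without that library. Alad in control replicate 4 was at 122 CPM, against 130.3 to 130.7 CPM in the other controls. None of the 9 genes or their ratios held such a library.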

How the results depend on the processing

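Of the 9 genes, 2 were called higher under TMM factors, and 0 were under library totals or on FPKM with either pseudocount. With each library left out in turn the number was 0 to 3. Signs turned for estimates near 0. Under library totals, log2(FPKM + 0.5) and log2(FPKM + 1), in that order, Fth1 was at -0.0138, -0.0141 and -0.0141, Ncoa4 at -0.0109, -0.00538 and -0.00536, Fbxl5 at -0.0346, -0.0258 and -0.0247, and Ptgs2 at -0.0477, -0.0492 and -0.0490. With length and GC correction Fbxl5 was at -0.00718 and Ptgs2 at -0.0313. With a library left out, the lowest and highest log2 fold changes were -0.0636 and 0.0167 for Tfrc, -0.0984 and 0.104 for Ireb2, -0.0251 and 0.0910 for Fbxl5, -0.0153 and 0.0424 for Ptgs2, and -0.125 and 0.0207 for Slc11a2. The cause was not tested.

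The replicate numbers are not said to pair cultures, and same-numbered libraries deviated together only weakly (correlations -0.04 to 0.08, highest with its own number for 3 of the 4 numbers). With a replicate block 2660 genes were called in place of 2344, and 3 of the 9, with Aco1 added at an edgeR adjusted p of 0.0497. The 4 genes under 30 CPM had the widest intervals, and the part of depth in that was not tested.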
